A study of Mus musculus with 10 samples.

Results

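The regions described here are the accessible sites around 10 mouse genes of the gp130 cytokine and STAT3 pathway: the ligand genes Il6 and Lif, the receptor genes Il6st, Il6ra, Osmr and Lifr, the kinase genes Jak1 and Jak2, the transcription factor gene Stat3 and the inhibitor gene Socs3. A region was included if its strongest summit lay within 50 kb of the span of one of these genes, which took in 235 of 117284 regions in aged cells and 229 of 131656 regions in young cells. No region was counted for more than 1 gene. The member regions just inside the limit had summits 48.81 kb from Jak2 (aged list, 50.7-fold over background) and 49.87 kb from Il6st (young list, 2.38-fold). Those just outside lay 50.17 kb (aged, 12.6-fold) and 50.19 kb (young, 15.1-fold) from Il6ra.

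The regions came from ATAC-seq, an assay of open chromatin by transposase insertion, on muscle stem cells sorted by flow cytometry for α7-integrin and CD34 from C57BL/6 mice. Cells were held for 2 h in serum-containing growth medium with prostaglandin E2 (PGE2, dissolved in DMSO) or with 0.1% DMSO as vehicle. The labels describe 3 aged PGE2, 2 young PGE2, 3 aged vehicle and 2 young vehicle libraries, from aged mice of 20 to 25 months and young mice of 8 to 20 weeks. The values analysed were 2 lists of regions, 1 for aged and 1 for young cells, both after PGE2, so the effect of PGE2 itself was not analysed here, and age cannot be told apart from a PGE2 response that depends on age. Values per library were not analysed here either, which leaves differences between the ages without a replicate error or a test. The labels do not say whether libraries came from separate mice. The number of reads in each library is unknown.

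Fold, a value of the authors' peak caller, is the height of a summit relative to the background level the caller assumed. The 2 lists differ in length and in that background, so regions were ranked only within their own list. Gene starts were ordered by fold, and percentiles were taken over the caller's −log10 q-value. Folds of both lists for 1 site are given side by side without a comparison. A region is called aged-only or young-only if no region of the other list overlapped it by at least 1 bp, and shared otherwise. A site missing from a list had no summit that passed the caller's threshold. The smallest passing summits corresponded to 37 fragments in the aged list and 39 in the young list, over inferred backgrounds of 19.8 and 21.7.

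Cytokines of the IL-6 family signal through gp130, the receptor subunit encoded by Il6st, together with other receptors that differ between ligands. The assembled receptor brings together Janus kinases, which phosphorylate STAT3. STAT3 then moves to the nucleus and switches on genes that include Socs3, whose product binds gp130 and shuts the signal off. In muscle stem cells this pathway is known for its part in leaving dormancy, dividing and differentiating, while oncostatin M, acting through Osmr and gp130, is known to favour dormancy.

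The promoters of all 10 genes were found in the RefSeq promoter table (GRCm38.p6), with 2 starts for Lifr and 1 for each other gene. Of these 11 promoters, each 250 bases before to 50 after the start, 9 were covered over all 300 bases by a region in both lists. The exceptions, the Lif promoter and the second Lifr promoter, had 0 bases covered in either list. The 4 sequences that follow are the 250 bases before the start, shown because they include a ligand promoter that was open and one that was not, and the only members with a full cAMP response element or a STAT-type motif among these promoters. Capitals mark TGACGTCA (the cAMP response element) in Jak1, an NF-κB type motif and TGANTCA (AP-1 type) in Il6, TTCNNNGAA (STAT type) in Socs3, and TGANTCA in Lif.
Jak1 (chr4:101265224-101265473, minus strand): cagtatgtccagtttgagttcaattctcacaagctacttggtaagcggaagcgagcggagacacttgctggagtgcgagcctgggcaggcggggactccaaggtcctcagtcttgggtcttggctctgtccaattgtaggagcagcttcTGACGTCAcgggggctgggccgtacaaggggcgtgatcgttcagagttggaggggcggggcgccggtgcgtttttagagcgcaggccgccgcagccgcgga
Il6 (chr5:30012864-30013113, plus strand): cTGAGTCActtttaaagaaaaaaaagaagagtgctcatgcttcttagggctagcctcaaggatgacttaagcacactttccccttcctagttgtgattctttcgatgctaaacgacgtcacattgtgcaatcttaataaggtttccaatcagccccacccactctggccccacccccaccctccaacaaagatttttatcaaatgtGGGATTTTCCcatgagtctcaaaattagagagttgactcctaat
Socs3 (chr11:117969367-117969616, minus strand): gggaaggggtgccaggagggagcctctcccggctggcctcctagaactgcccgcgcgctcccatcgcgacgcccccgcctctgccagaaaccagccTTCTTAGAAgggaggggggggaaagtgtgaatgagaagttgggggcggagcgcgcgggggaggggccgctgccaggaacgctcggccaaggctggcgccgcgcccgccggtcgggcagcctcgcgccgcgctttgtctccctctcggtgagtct
Lif (chr11:4257318-4257567, plus strand): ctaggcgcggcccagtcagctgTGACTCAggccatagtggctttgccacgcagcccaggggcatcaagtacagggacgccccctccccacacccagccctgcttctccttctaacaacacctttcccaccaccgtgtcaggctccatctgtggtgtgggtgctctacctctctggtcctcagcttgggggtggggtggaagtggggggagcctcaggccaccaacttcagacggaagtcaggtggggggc

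The match in Jak1 began 101 bases before the start, that in Socs3 154 bases before, the NF-κB type match in Il6 44 bases before, and the AP-1 type matches 249 bases before the start in Il6 and 228 bases before it in Lif. Searched on both strands, TGACGTCA was found in 1.79% of all 32851 promoters of the table and in 1 of the 11, TTCNNNGAA in 8.3% and in 1, the NF-κB type motif in 1.63% and in 1, and TGANTCA in 7.81% and in 3, the third being Osmr, where it lay just after the start. TTCCNGGAA, a stricter STAT motif contained in TTCNNNGAA, was found in 1.15% of promoters and in 0 of the 11. The GC box GGGCGG was found in 35.7% and in 7 of the 11. The median GC content of the 11 promoters was 66.0%, against 52.7% over the table. Il6 (44.0%) and the second Lifr promoter (53.3%) were the lowest of the 11, and the first Lifr promoter (81.3%) and that of Jak2 (81.0%) the highest. A match is a string of letters and was not tied to binding of any factor.

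9 of the 10 genes had an open start at both ages. A region overlapped the 1 kb on either side of an annotated start in both lists for 9 of the 10 genes and in neither list for Lif. Over the 17492 protein-coding genes with a start in the table, 63.2% had such a region in both lists, 0.366% in the aged list alone, 2.5% in the young list alone and 33.9% in neither. The strongest start among the members was that of Il6st in each list, at 115-fold in the aged list and 157-fold in the young list, above the 99th percentile of regions in each. The weakest was that of Il6, at 13.9-fold in the aged list and 23.6-fold in the young list. The median over all gene starts with a region was 30.2-fold in the aged list and 46.3-fold in the young list, so Il6 and Il6ra (24.3-fold aged, 37.3-fold young) lay under the median of each list and the other 7 above it. Osmr, Il6ra and Il6 were the last 3 in both lists. Between them and Il6st the order differed, with Stat3 second in the aged list and sixth in the young list.

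**Figure D1:**
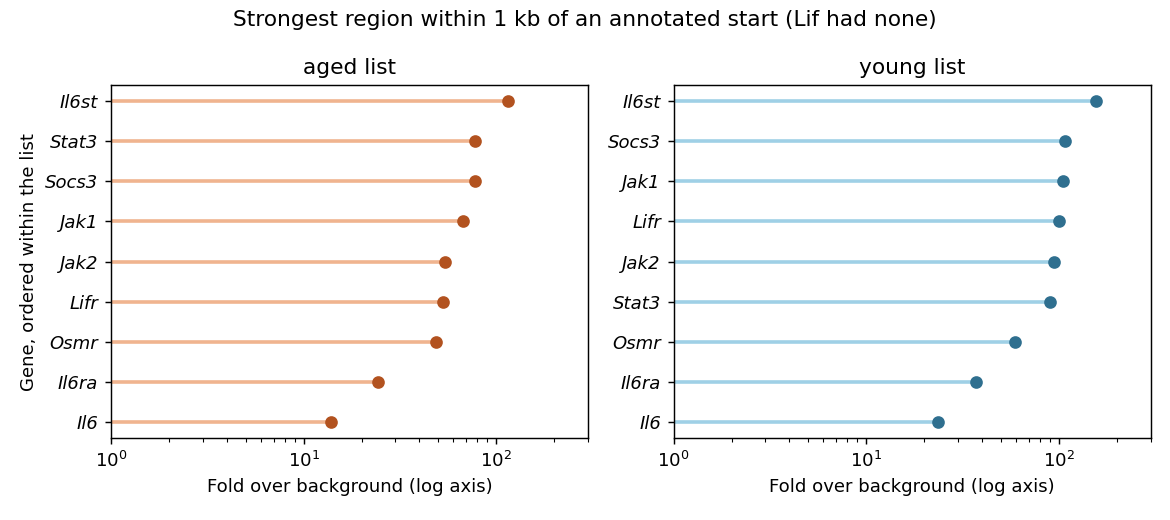
Fold over background (log axis) of the strongest region within 1 kb of an annotated start, for the 9 of 10 genes that had one, with the aged list on the left and the young list on the right. Il6st stood first in both lists (115-fold aged, 157-fold young) and Il6 last (13.9-fold aged, 23.6-fold young).

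Most of the 10 genes had more regions around them than the median gene, while Il6 and Il6ra had fewer. The number within 50 kb ranged over the genes between 5 and 39 in the aged list (median 26.0) and between 6 and 42 in the young list (median 22.5), against a median of 8 and 9 over all 21900 protein-coding genes. Long spans give wide windows, and the neighbours inside these windows, such as Stat5a, Stat5b and Cavin1 beside Stat3, bring in starts of their own. As a set the regions had heights close to those of the whole lists. Their median fold was 4.52 in the aged list, against 4.32 over all aged regions, and 4.8 in the young list, against 4.89 over all young regions. Regions of 10-fold or more numbered 59 of 235 (25.1%) in the aged list and 70 of 229 (30.6%) in the young list, where 25.4% and 29% of all regions reached that height.

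Most of these regions were found at both ages. Aged-only regions numbered 27 of 235 (11.5%, 95% exact binomial interval 7.71 to 16.3), where 10.7% of all aged regions were aged-only. Young-only regions numbered 41 of 229 (17.9%, 13.2 to 23.5), where 28.2% of all young regions were young-only. The interval of the young-only share lay under the share of the whole list, and that of the aged-only share contained it. With each list reduced to its 58642 strongest regions this separation was lost, since the young-only share was 10.6% (5.40 to 18.1) where 15.4% of all regions were young-only, and the aged-only share was 16.7% (10.5 to 24.6) where 11.1% were aged-only. Within 50 kb of any protein-coding gene the shares were 9.84% and 28.5%. The intervals cover counting error over neighbouring regions, which are not independent draws, and do not stand for mice. With a reciprocal overlap of 50% required, the aged-only share was 32.3% and the young-only share 30.6%, against 33.9% and 41.2% over all regions, and with summits required to lie within 100 bp they were 28.1% and 26.2%, against 28.2% and 36.0%. Where both lists had exactly 1 region over a site, the strongest summits were close together, with a median gap of 15 bp over 163 pairs and 149 (91.4%) within 100 bp, much as over all 81213 such pairs (15 bp, 90.7%).

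The regions found at one age were weak and narrow. Aged-only regions ran from 1.92 to 3.80-fold with a median width of 184 bp, against a median of 5.26-fold and 453 bp for shared aged regions. Young-only regions ran from 1.80 to 5.11-fold with a median width of 195 bp, against 6.82-fold and 609 bp for shared young regions. Regions found at one age were of like size over the whole lists, with medians of 2.40-fold and 193 bp for aged-only and 2.73-fold and 220 bp for young-only regions, against 2.40-fold and 2.33-fold near the 10 genes. Of the 27 aged-only regions, 26 had a single summit and 12 lay within 1 kb of a young region. Of the 41 young-only regions, 38 had a single summit and 20 lay within 1 kb of an aged region. Like counts over all one-age regions of the lists are not given here, so these are not traits particular to this set. By position, 16 of 98 aged regions inside the genes (16.3%), 8 of 70 upstream (11.4%) and 3 of 67 downstream (4.48%) were aged-only, and 9 of those 16 lay in Osmr. In the young list, 24 of 96 regions inside the genes (25.0%), 6 of 63 upstream (9.52%) and 11 of 70 downstream (15.7%) were young-only. Of those 24 inside the genes, 8 lay in Jak1 and 6 in Il6st. At any position, 10.7% of all aged regions were aged-only and 28.2% of all young regions young-only. Shares by position over the whole lists are not given here. The regions found at one age made up 3.75% of the 142916 bp covered near these genes in the aged list and 5.98% of the 166504 bp covered in the young list, against 3.90% and 10.7% of the bp covered by the whole lists.

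**Figure D2:**
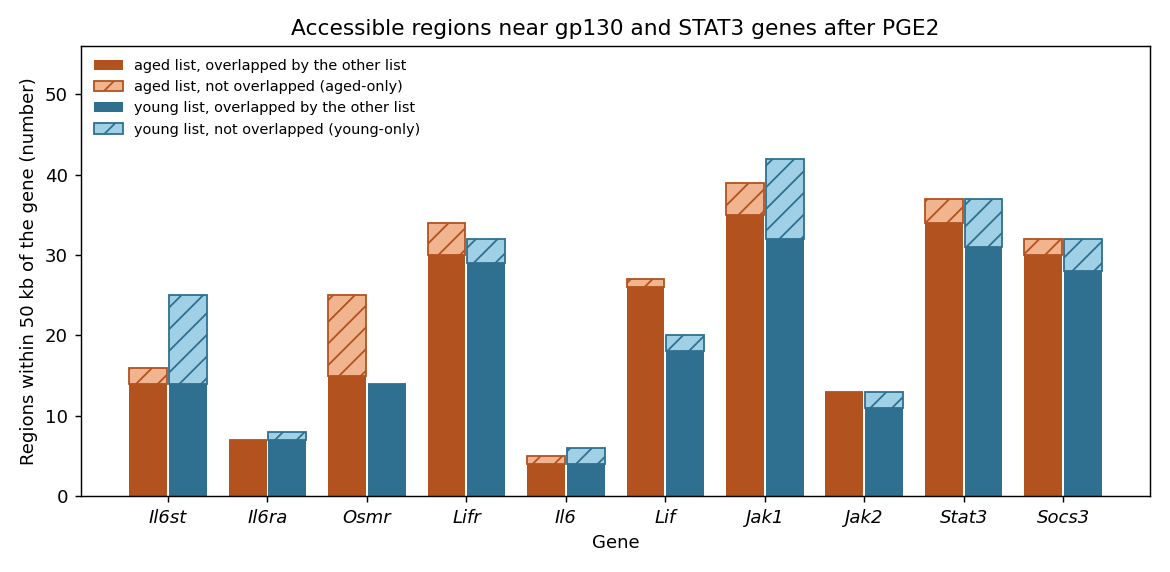
Number of regions within 50 kb of each gene in the aged list (left bar of each pair) and the young list (right bar), split into those overlapped by the other list (filled) and those that were not (hatched). Osmr had 10 aged-only and 0 young-only regions, and Il6st 2 aged-only and 11 young-only. Over the whole lists 10.7% of aged regions were aged-only and 28.2% of young regions young-only.

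Among the ligand genes, Il6 lay in a sparse stretch of chromosome 5 (30013114 to 30019975) and had 5 regions in the aged list and 6 in the young list. Il6 encodes interleukin-6, a cytokine also released by working and injured muscle. Its start region spanned 30012634 to 30013756 in the aged list (1123 bp, 13.9-fold) and 30012774 to 30013756 in the young list (983 bp, 23.6-fold). It was the strongest near Il6 in both lists, with the next at 4.52-fold in the aged list, 5.83 kb upstream of the start, and 4.14-fold in the young list, 5.49 kb downstream of it. 1 region was aged-only (2.88-fold, 5.40 kb upstream, with a young region 0.166 kb away). 2 were young-only (2.73 and 1.80-fold), both inside the gene. Over all regions 10.7% of aged ones were aged-only and 28.2% of young ones young-only.

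Lif, which encodes leukemia inhibitory factor, a mitogen of myoblasts, lies on chromosome 11 (4257568 to 4272514) and had 27 regions in the aged list and 20 in the young list. The nearest region inside the gene had its summit 1436 bp after the annotated start in the aged list (8.89-fold) and 1422 bp after it in the young list (17.0-fold). Windows of 2.5 kb therefore gave Lif a start region in both lists. The strongest sites near Lif lay well past the gene, between genes. In the aged list the first 3 had summits 42.3, 37.1 and 39.4 kb after the start (41.8, 33.6 and 31.5-fold). In the young list they lay 42.3, 39.4 and 34.4 kb after it (52.6, 49.96 and 46.2-fold). The strongest young region there was 5193 bp wide with 10 summits and was overlapped by 3 separate aged regions. Of the 20 young regions near Lif, 6 (30.0%) were overlapped by 2 or more aged regions, against 19 of 229 (8.30%) near all 10 genes and 7.76% of all young regions. In the other direction, 0 of the 27 aged regions near Lif were overlapped by 2 or more young regions, against 4 of 235 (1.70%) near all 10 genes and 1.49% of all aged regions. Of the 27 aged regions near Lif, 1 was aged-only (2.21-fold), and of the 20 young regions 2 were young-only (3.08 and 2.29-fold). Over the whole lists 10.7% of aged regions were aged-only and 28.2% of young regions young-only. Osm, the oncostatin M gene, lies within the window of Lif and had no region within 1 kb of either end of its span in either list.

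Among the receptor genes, Osmr and Il6st differed most in which regions were found at one age. Osmr encodes the receptor that joins gp130 to bind oncostatin M and lies on chromosome 15 (6813568 to 6874968, minus strand). It had 25 regions in the aged list and 14 in the young list. The strong sites of Osmr were in both lists. The strongest of all was not the start but a site 35.6 kb upstream of it, between genes, at 82.1-fold in the aged list (6909113 to 6910613) and 118-fold in the young list (6909101 to 6910683). The start itself had 48.5-fold in the aged list and 59.3-fold in the young list, with summits 2 bp apart. Inside the gene, a site 16.3 kb after the start had 33.7-fold in the aged list and 17.2-fold in the young list, and one 24.2 kb after it had 23.8-fold in the aged list and 25.4-fold in the young list. The order of these intragenic sites thus differed between the lists.

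10 of the 25 aged regions near Osmr (40.0%, 21.1 to 61.3) were aged-only, where 10.7% of all aged regions were, and 0 of the 14 young regions were young-only, where 28.2% of all young regions were. A count of 0 of 14 allows a share of up to 23.2% (upper bound of the exact binomial interval). Of the 10, 9 lay inside the gene, spread between 15.2 and 60.5 kb after the start, and 1 lay 38.2 kb upstream. They were 149 to 279 bp wide, each with a single summit of 1.92 to 3.80-fold, which corresponds to 39 to 78 fragments. The tallest, at 6858983 to 6859224, lay 575 bp from the nearest young region, and 2 of the 10 had a young region within 1 kb. Among the 8883 protein-coding genes with at least 10 regions in each list, 9.91% had more aged-only than young-only regions. An aged-only share of 40.0% or more was found at 0.54% of them, and such a share with 0 young-only regions at 13 genes (0.146%). Osmr was singled out of the 10 genes after these counts were seen, and neighbouring genes share regions. At a −log10 q of at least 5 the count was 5 aged-only against 2 young-only, and with each list reduced to its 58642 strongest regions 2 against 1.

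**Figure D3:**
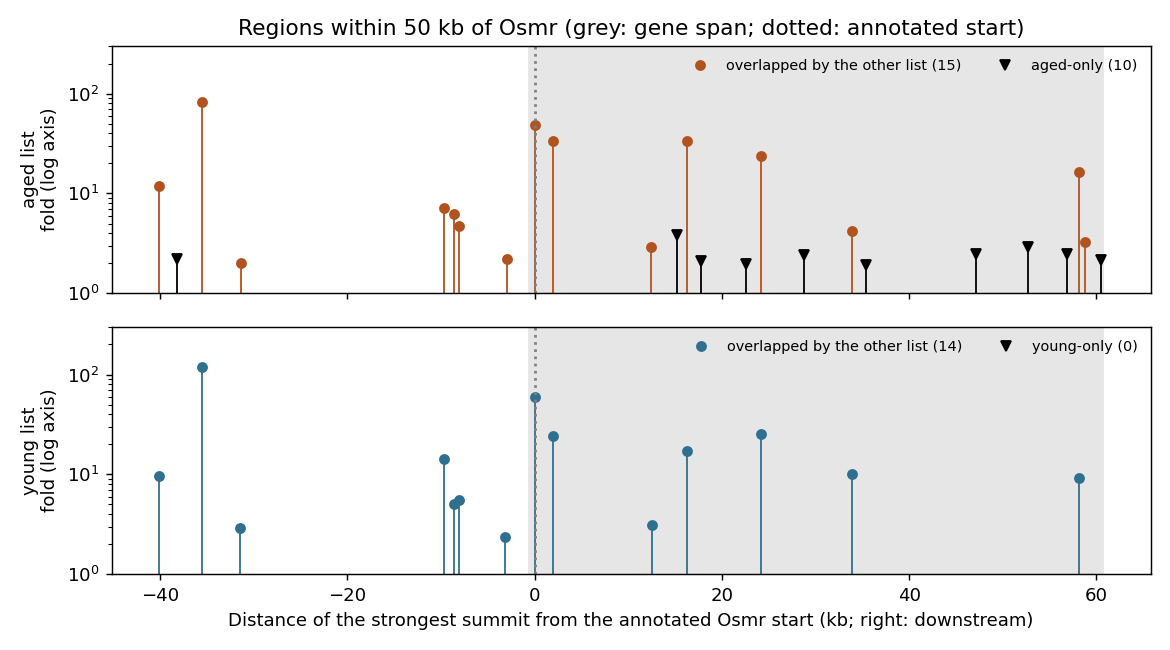
Regions within 50 kb of Osmr by distance of the strongest summit from the annotated start (kb, downstream to the right) and fold over background (log axis), with the aged list above and the young list below. Filled circles were overlapped by the other list, and black triangles (10 in the aged list, 0 in the young list) were not. The triangles were all below 4-fold and 9 of the 10 lay inside the gene span, shaded grey.

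Il6st, which encodes gp130 itself, lies on chromosome 13 (112464070 to 112506860) and had 16 regions in the aged list and 25 in the young list. Its start region was 2709 bp wide with 7 summits in the aged list (112463194 to 112465902) and 2770 bp wide with 8 summits in the young list (112463144 to 112465913), and the strongest summits lay 1 bp apart. The next strongest sites were the same in both lists, 38.5 kb upstream (25.3-fold aged, 39.5-fold young) and 16.7 kb upstream (20.7-fold aged, 28.8-fold young), and the start of Il6st was the nearest in the table to both. Aged-only regions numbered 2 of 16 (12.5%, 1.55 to 38.3), both upstream, at 2.84 and 2.55-fold. Young-only regions numbered 11 of 25 (44.0%, 24.4 to 65.1), with 6 inside the gene, 4 upstream and 1 downstream, at 1.89 to 3.26-fold or 42 to 73 fragments. Over the whole lists 10.7% of aged regions were aged-only and 28.2% of young regions young-only, and both intervals contained those shares. A young-only share of 44.0% or more was found at 6.45% of the 8883 genes. Il6st, like Osmr, was singled out of the 10 genes after these counts were seen. Regions with their summit inside the span of Il6st numbered 1 in the aged list and 7 in the young list. At a −log10 q of at least 5 the count was 2 aged-only against 7 young-only, and with each list reduced to its 58642 strongest regions 2 against 0. Without Il6st, 30 of 204 young regions (14.7%, 10.1 to 20.3) near the other 9 genes were young-only, against 28.2% of all young regions. Without Osmr, 17 of 210 aged regions (8.10%, 4.79 to 12.6) near the other 9 were aged-only, an interval that contained the 10.7% of all aged regions. Each gene left out had the highest such share of the 10, so both shares fell by construction.

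**Figure D4:**
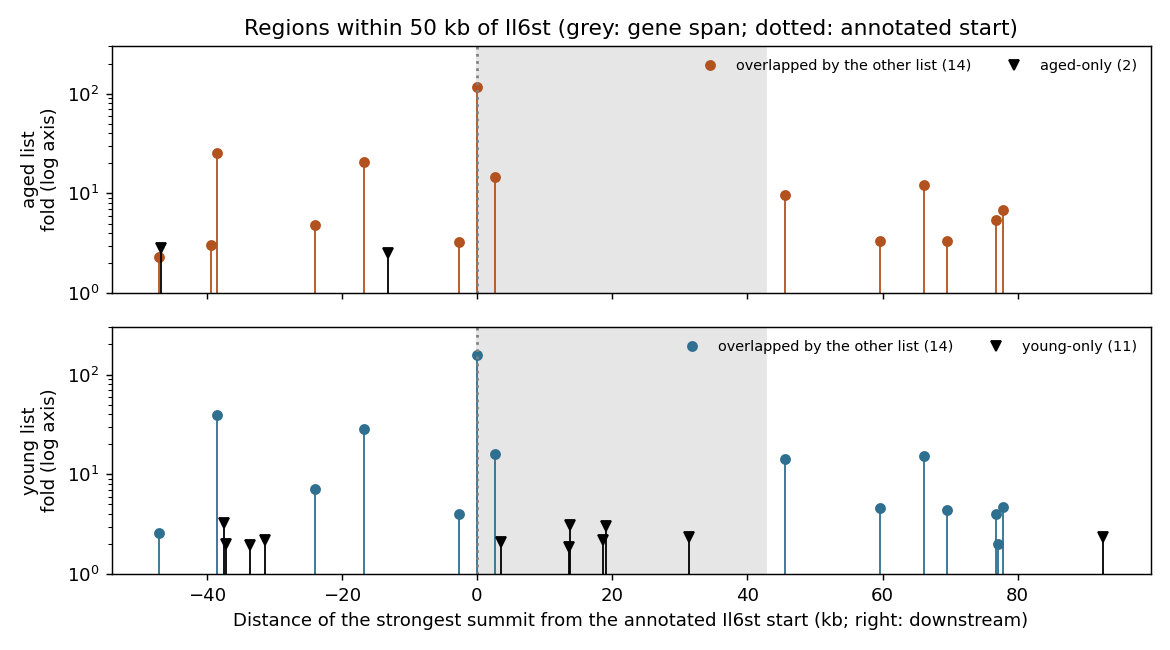
Regions within 50 kb of Il6st by distance of the strongest summit from the annotated start (kb, downstream to the right) and fold over background (log axis), with the aged list above and the young list below. Filled circles were overlapped by the other list (14 in each), and black triangles (2 in the aged list, 11 in the young list) were not. Inside the grey gene span the aged list had 1 region and the young list 7, of which 6 were young-only.

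Il6ra encodes the receptor subunit that binds interleukin-6 and hands it to gp130. The gene lies on chromosome 3 (89869324 to 89913196, minus strand) and had 7 regions in the aged list and 8 in the young list. All 7 aged regions were shared. The 1 young-only region (1.98-fold, 44 fragments) lay 3.03 kb after the start. Counts this small say little beside the shares over all regions (10.7% aged-only, 28.2% young-only). The strongest summit of the start region lay 653 bp after the start in the aged list (24.3-fold) and at the start itself in the young list (37.3-fold), which was the largest summit gap of the 9 gene starts. A region at the start of the neighbour Atp8b2, 47.5 kb upstream of Il6ra, was as high (24.5-fold aged, 36.8-fold young).

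Lifr encodes the receptor that joins gp130 to bind leukemia inhibitory factor. The gene lies on chromosome 15 (7090610 to 7197489) and had 34 regions in the aged list and 32 in the young list. The first start had 52.7-fold in the aged list (7128608 to 7131137) and 100-fold in the young list (7128563 to 7131146). The next strongest site, inside the span of the neighbour Egflam, had 16.7-fold in the aged list and 30.2-fold in the young list. The third, about 10 kb before the first start, had 8.70-fold in the aged list and 26.9-fold in the young list. It lay inside the gene span, which begins before that start. Regions of 10-fold or more numbered 2 of 34 (5.88%) in the aged list and 5 of 32 (15.6%) in the young list, where 25.4% and 29% of all regions reached that height. Aged-only regions numbered 4 (11.8%, at 1.92 to 3.03-fold) and young-only regions 3 (9.38%, at 2.20 to 2.77-fold). The shares over all regions were 10.7% and 28.2%.

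Jak1 and Jak2 encode the kinases bound to the receptors' tails. Jak1 lies on chromosome 4 (101151974 to 101265282, minus strand) and had the most regions of the 10 genes, with 39 in the aged list and 42 in the young list. Its start had 67.0-fold in the aged list and 105-fold in the young list, with the summit 104 bp before the annotated start in the aged list and 91 bp before it in the young list. The cAMP response element shown above lies 101 bases before the start, and a link between it and the summit was not tested. An intragenic site 62.4 kb after the start was next in both lists, at 49.1-fold in the aged list (101202315 to 101203278) and 64.9-fold in the young list (101202234 to 101203385). A site 26.9 kb upstream, between genes, followed at 43.9-fold in the aged list and 45.9-fold in the young list. Aged-only were 4 aged regions (10.3%, 2.87 to 24.2), and young-only were 10 young regions (23.8%, 12.1 to 39.5), both close to the shares over all regions (10.7% and 28.2%). Each of the 4 aged-only regions lay within 1 kb of a young region.

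Jak2 lies on chromosome 19 (29251803 to 29313095) and had 13 regions in each list. Its start had 54.2-fold in the aged list and 95.1-fold in the young list. The young start region was 3820 bp wide with 7 summits and was overlapped by 3 aged regions, the widest of them 2143 bp. The second strongest region near Jak2 lay at the start of Plgrkt (50.7-fold aged, 88.7-fold young). None of the 13 aged regions was aged-only (exact interval up to 24.7%), and 2 of the 13 young regions were young-only, at 2.42 and 2.20-fold. The 2 young-only regions made up 15.4% (1.92 to 45.4). Over all regions the aged-only share was 10.7% and the young-only share 28.2%.

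Stat3, which encodes the transcription factor of the pathway, lies on chromosome 11 (100886806 to 100939594, minus strand) and had 37 regions in each list. Its start had 78.1-fold in the aged list (100938661 to 100940327) and 90.02-fold in the young list (100938668 to 100940454). The next strongest regions belonged to starts of neighbours. Stat5a, another STAT gene, had 40.9-fold in the aged list and 38.2-fold in the young list, and Cavin1 had 35.3-fold in the aged list and 50.8-fold in the young list. Aged-only regions numbered 3 (8.11%, 1.70 to 21.9) and young-only regions 6 (16.2%, 6.19 to 32.0). Both intervals contained the shares over all regions (10.7% and 28.2%). The strongest one-age region near any of the 10 genes was a young-only one, at 100870630 to 100870948 (5.11-fold, 115 fragments). It lay inside the span of Stat5a, 8343 bp from the nearest aged region.

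Socs3, the feedback inhibitor gene and a classical STAT3 target, is 4258 bp long and lies on chromosome 11 (117966079 to 117970336, minus strand). It had 32 regions in each list, and as many or more were found at 3.63% of protein-coding genes in the aged list and at 4.32% in the young list. The start had 77.4-fold in the aged list and 108-fold in the young list, with summits 1 bp apart. The young start region (117967218 to 117970423, 3206 bp, 7 summits) ran over most of the gene and was overlapped by 4 aged regions, of which the strongest spanned 117968064 to 117970325. Past the end of the gene stood a row of strong sites at both ages. The site 19.4 kb after the start had 54.8-fold in the aged list (117948872 to 117950295) and 62.1-fold in the young list (117948901 to 117950418). The site just past the gene was 4019 bp wide with 9 summits in the aged list (117962015 to 117966033, 44.4-fold) and 4136 bp wide with 8 summits in the young list (117961917 to 117966052, 56.7-fold). Downstream regions numbered 19 in the aged list and 20 in the young list, of which 2 in each were found at one age. Over the whole window, 13 regions in each list reached 10-fold, which is 40.6%, where 25.4% of all aged and 29% of all young regions did. Among them were a region within 1 kb of the start of the neighbour Pgs1 (28.6-fold aged, 46.5-fold young) and one inside its span (13.5-fold aged, 15.3-fold young). The aged-only regions (2.40 and 2.31-fold) and the 4 young-only regions (2.11 to 3.65-fold) were weak. They made up 6.25% of the aged and 12.5% of the young regions near Socs3, against 10.7% and 28.2% over all regions.

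**Figure D5:**
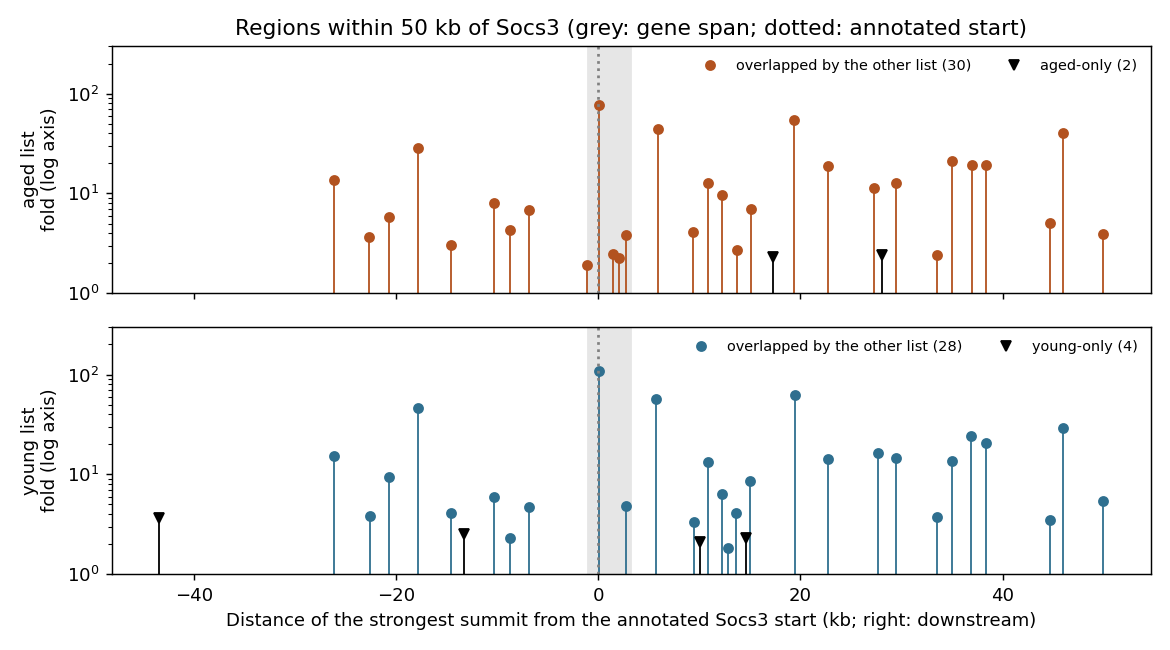
Regions within 50 kb of Socs3 by distance of the strongest summit from the annotated start (kb, downstream to the right) and fold over background (log axis), with the aged list above and the young list below. Filled circles were overlapped by the other list and black triangles (2 in the aged list, 4 in the young list) were not. Strong sites follow the gene downstream in both lists, among them the one at 19.4 kb (54.8-fold aged, 62.1-fold young).

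The other genes of the pathway mostly had open starts at both ages too. Of 47 further genes, 31 had a start in the promoter table. Of these, 26 (83.9%) had a region there in both lists, 1 in the aged list alone, 2 in the young list alone and 2 in neither, against the 63.2% of all genes with a start region in both lists. The tyrosine phosphatase gene Ptpn6 was the one with a region in the aged list alone, at 2.35-fold. The ciliary neurotrophic factor gene Cntf (3.43-fold) and its receptor gene Cntfr (2.55-fold) had one in the young list alone. Ebi3, a subunit of interleukin-27, and Il31ra, the interleukin-31 receptor gene beside Il6st, had none in either list. Both other kinase genes, Jak3 and Tyk2, all 5 STAT genes and all 10 STAT3 target genes with a start in the table had a region in both lists. Among the 31 genes with a start in the table, the 3 strongest starts in the aged list were those of Cish (74.3-fold), an inhibitor of STAT5 signalling, Stat2 (70.4-fold) and, at 67.3-fold each, Bcl2l1 and Fos. In the young list they were Junb (116-fold), Hif1a (110-fold) and Cish (103-fold). For the 16 genes without a start in the table, both ends of the span were used, and 15 had a region close by (1 kb or less) in both lists and 1, Osm, in neither. Some of these regions were stronger than the starts just named, among them those of Cebpd (94.0-fold aged, 171-fold young) and Socs5 (88.5-fold aged, 129-fold young). Over all 21900 protein-coding genes, 63.3% had one in both lists, 0.479% in the aged list alone, 3.2% in the young list alone and 33.1% in neither.

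The starts or gene ends of all 8 muscle stem cell markers, among them Pax7, Cdh15 and Calcr, had a region in both lists. Regions were also present in both lists at all 4 fibro-adipogenic markers (Dpt at 98.9-fold aged and 129-fold young), at 2 of 4 endothelial, 1 of 4 immune, 2 of 3 Schwann and 3 of 4 smooth muscle and pericyte markers. For comparison, 63.2% of protein-coding genes with a start in the table had a start region in both lists. A region near either end of the span was in both lists for 63.3% of all protein-coding genes. Found in the young list alone were Cdh5 (endothelial, 1.98-fold), Sox10 (Schwann, 2.95-fold) and Rgs5 (pericyte, 3.21-fold), and 0 of these markers were found in the aged list alone. Pecam1 and the immune genes Ptprc, Itgam and Csf1r had none in either list. An open start is not expression, and the part of other cell types in the one-age regions was not tested.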

How the data were processed

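Bowtie2 and the mm10 build (GRCm38) are named in the submitters' processing notes. The deposited lists are in the narrowPeak layout of MACS, 1 per age after PGE2. The labels do not give the caller's settings or release, how duplicates and mitochondrial reads were treated, whether read ends were shifted for the transposase, or which libraries were pooled. The fold ratio and −log10 q-value used for a summit were taken as deposited by the authors, and the deposited score column was not used. Every fold was a whole multiple of a single step per list (tolerance 0.05), which is what 1 uniform background gives. Summit heights in fragments were recovered from that step, taking fold as height plus 1 over background plus 1. With the caller's settings unknown, the unit counted may be fragments or read ends. Such a background does not follow local differences in coverage. The depth per library is unknown. Reads without molecular identifiers are not independent molecules, so every interval covers counting error only.

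Touching or overlapping rows were merged, which turned 215838 aged rows into 117284 regions and 265507 young rows into 131656, keeping the summit with the highest −log10 q. Gene spans and promoters came from RefSeq tables of GRCm38.p6. Upstream and downstream follow the strand of the gene. Shares have exact Clopper-Pearson intervals at 95%. Merging and overlap were tested on simulated rows. Python 3.11.15, pandas 2.3.3, SciPy 1.17.1 and matplotlib 3.10.9 were used. The genes, lists and motifs were chosen with earlier results of these data known. By rule, the text names the 10 genes with their start, strongest and strongest one-age regions, and from the wider list the genes with a start open in a single list or in neither and the 3 strongest in each list. Other regions and genes were added after their values were seen. Alternatives were a stricter q-value, equal list lengths (ranked by −log10 q), other distances, merging, overlaps and start windows.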

Additional observations from a re-analysis of the deposited data

How the results depend on the processing

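Of 32 alternative values for the counts and shares over the 10 genes, 24 stayed within 1.5 times the reported count or within the reported interval, and 8 moved. With the strongest 58642 regions of each list there were 120 aged and 104 young regions near the genes, with shares of 16.7% aged-only and 10.6% young-only (11.1% and 15.4% over all regions of that setting). With a reciprocal overlap of 50% the shares were 32.3% aged-only and 30.6% young-only (33.9% and 41.2% over all regions). With summits within 100 bp they were 28.1% and 26.2% (28.2% and 36.0% over all regions). Both of these settings ask more of a shared region by construction. The young-only share near the genes was under that of the whole list in each of the 8 settings, the reported one included. In the lists of equal length its interval (5.40 to 18.1) contained the 15.4% of all regions. The aged-only share was above it in 4 and under it in 4. Near Osmr the count of aged-only regions was 2 to 13 over the alternatives and that of young-only regions 0 to 2, with more aged-only in each. Near Il6st the count of young-only regions was 0 to 14 and that of aged-only regions 1 to 4, where the lists cut to equal length gave 2 aged-only and 0 young-only. Starts were open at 9 or 10 of the 10 genes in both lists at each window and threshold. No paired analysis was possible because each age has 1 list with no value per library, and for the same reason no replicate could be left out.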
